A study of Mus musculus with 2 samples.

Results

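The Bcl2 family genes described here are 10 of the 31053 genes in the deposited tables, chosen by symbol: the survival members Bcl2, Bcl2l1, Mcl1, Bcl2a1b and Bcl2a1d, the BH3-only members Bcl2l11, Pmaip1 and Bbc3, and the effectors Bax and Bak1. They were measured by droplet single-cell RNA sequencing of bone marrow from aged C57BL/6J mice that carried transplanted gut microbiota, taken from young donors in 1 library (FMT_young) and from aged donors in the other (FMT_aged). Recipients were aged in both libraries, so FMT_aged is the control for the age of the donor, and untreated aged or young recipients were not analysed here. Each library was assembled from flow-sorted fractions, 1 part whole marrow, 1 part lineage-negative cells and 4 parts lineage-negative cells with surface Kit, so progenitors were enriched by design. The age in months and how many mice stand behind a library are not given in the sources used here.

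Bcl2 family proteins decide at the mitochondrial outer membrane whether a cell starts apoptosis. Survival members hold the effectors Bax and Bak1 in check, BH3-only members bind the survival members or activate the effectors, and the effectors form the pores that release cytochrome c. Blood cell types lean on different survival members: lymphocytes on Bcl2, granulocytes and stem cells on Mcl1, and the Bcl2a1 copies (A1) are induced in activated leukocytes. Transcript levels do not give the amount of protein, and Mcl1, Pmaip1 and Bcl2l11 proteins are strongly regulated by degradation.

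The libraries held 214982156 (FMT_young) and 207642851 (FMT_aged) UMIs, which are counted transcript molecules. Cells were barcodes with 1000 UMIs or more, 500 genes or more and no more than 10% mitochondrial UMIs. They numbered 11932 and 11351, and 10793 and 10320 cells remained after the highest doublet scores were removed, with 32 barcodes shared between the libraries. Marker genes named 13 classes with at least 50 cells in each library, and every class name carries "-like" because it describes transcripts. Clusters left unnamed held 19.2% and 16.2% of cells, and 2 clusters that were almost entirely in 1 library (plasma-like, 919 and 3 cells, and mature B-like, 4 and 322 cells) were kept out of their classes. Levels are CPM, the UMIs of a gene scaled to 1000000 UMIs of its class. Ratios are log2 of FMT_young over FMT_aged, and their brackets are 95% intervals that cover counting error only. No group has a second library, so nothing could be tested against replicates and each ratio compares these 2 libraries and not the treatments. Because CPM of a 3' assay depends on the gene, levels were compared between classes and not between genes.

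**Figure D1:**
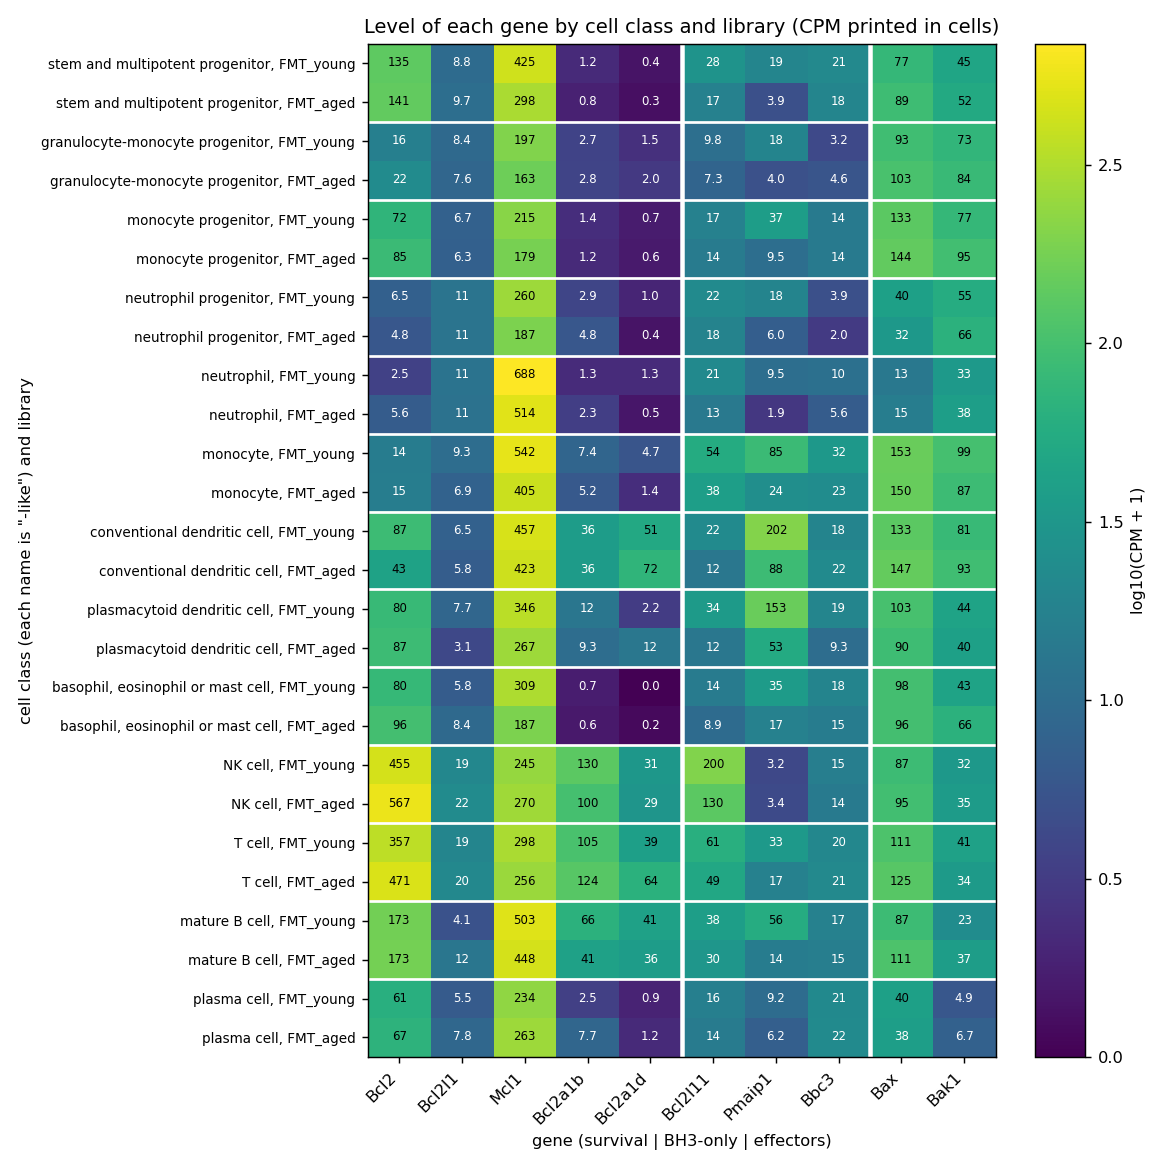
Heat map of the 10 genes (columns, by role) in 13 cell classes and 2 libraries (rows). Colour is log10(CPM + 1) and the printed value is CPM; Bcl2 was highest in the NK and T rows, Mcl1 in the neutrophil rows and Pmaip1 in the dendritic rows.

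Bcl2, the founding survival member (chromosome 1, 106538178 to 106714274, GRCm38), was highest in NK cell-like cells, with 455 CPM in FMT_young and 567 CPM in FMT_aged, and next in T cell-like cells with 357 and 471 CPM. It was lowest in the neutrophil classes, at 2.53 and 5.64 CPM in neutrophil-like cells and 6.49 and 4.83 CPM in neutrophil progenitor-like cells. Mature B cell-like cells followed with 173 CPM in both, and stem and multipotent progenitor-like cells with 135 and 141 CPM. The highest class therefore lay 180 and 117 times above the lowest, and of 12 neighbouring pairs in this order 6 had intervals that did not overlap in both libraries.

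Inside the stem and multipotent progenitor-like class Bcl2 was not uniform. The cluster led by Hlf and Mecom, genes of long-term stem cells, had 85.1 and 91.8 CPM, and the cluster led by Dntt and Flt3, genes of lymphoid-primed progenitors, had 181 CPM in both libraries. The same 2 clusters had the opposite order for Mcl1, with 598 and 393 CPM in the Hlf cluster against 265 and 220 CPM in the Dntt cluster. This opposite order was present in each library.

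Mcl1 (chromosome 3, 95658788 to 95663176), a short-lived survival protein, was highest in neutrophil-like cells with 688 and 514 CPM and lowest in granulocyte-monocyte progenitor-like cells with 197 and 163 CPM, a span of 3.50 and 3.16 times. Monocyte-like cells had 542 and 405 CPM, mature B cell-like cells 503 and 448 CPM, and stem and multipotent progenitor-like cells 425 and 298 CPM. Mcl1 thus varied far less between classes than Bcl2, and 2 of 12 neighbouring pairs stood apart in both libraries. An unnamed cluster led by Il1b, Acod1 and Cxcl2, with 10 of the 15 neutrophil markers, had 1509 and 1598 CPM of Mcl1, above each of the 13 named classes. Bcl2 there was 3.38 and 11.7 CPM, from 2 and 7 UMIs.

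**Figure D2:**
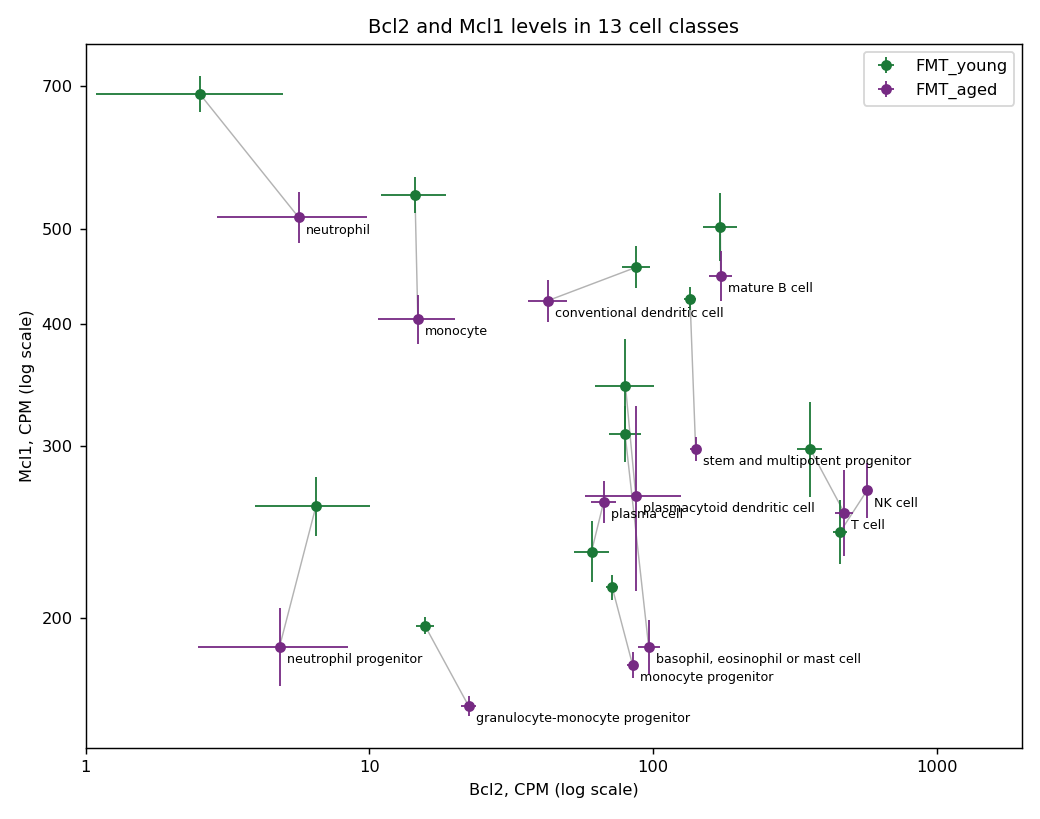
Bcl2 (x axis) and Mcl1 (y axis), both in CPM on log scales, in 13 cell classes; a grey line joins the 2 libraries of a class and bars are 95% Poisson intervals. Neutrophil-like cells lie at high Mcl1 and low Bcl2, NK-like and T-like cells at the highest Bcl2.

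Bcl2l1 (chromosome 2, 152780668 to 152831728), which encodes Bcl-xL, was counted sparsely. NK cell-like cells had the highest level, 19.4 and 22.3 CPM, and stem and multipotent progenitor-like cells had 8.76 and 9.67 CPM. The lowest values were 4.15 CPM in FMT_young mature B cell-like cells and 3.1 CPM (1 UMI) in FMT_aged plasmacytoid dendritic cell-like cells. None of the 12 neighbouring pairs stood apart in both libraries, so no finer order can be read.

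Bcl2a1b and Bcl2a1d are copies of A1 on chromosome 9 (89199209 to 89207827 on the plus strand and 88723285 to 88731914 on the minus strand). Their annotated transcripts share 99.1% of 817 aligned bases. Windows of 50 bases in the last 400 bases were compared among Bcl2a1a, Bcl2a1b and Bcl2a1d. Of 351 windows, 146 in Bcl2a1b and 55 in Bcl2a1d occur in no other of these copies. A stretch of 50 bases from the remaining windows also matches another of these copies. How the counting treated reads that match several copies is not given in the sources used here, so the level of each single copy is uncertain. The stretch upstream of the annotated starts is also nearly identical, with 135 of 136 aligned bases the same, and is shown because these genes were nevertheless counted in different proportions in different classes. Both lines are from the RefSeq promoter table (GRCm38.p6), 5′ to 3′ on the strand of the gene, chr9:89199023-89199164 and chr9:88731915-88732050, with capitals for bases that differ from the other copy.
Bcl2a1b: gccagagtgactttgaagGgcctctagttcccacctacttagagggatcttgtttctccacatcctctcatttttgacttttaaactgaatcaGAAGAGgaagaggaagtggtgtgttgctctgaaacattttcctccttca
Bcl2a1d: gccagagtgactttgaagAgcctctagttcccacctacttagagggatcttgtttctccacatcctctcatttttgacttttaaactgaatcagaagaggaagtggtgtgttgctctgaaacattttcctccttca
One base is substituted and 6 bases are present in the Bcl2a1b line alone.

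Among the 13 classes, the 4 highest for both copies were T cell-like, NK cell-like, mature B cell-like and conventional dendritic cell-like cells. Bcl2a1b was highest in NK cell-like cells of FMT_young (130 CPM, against 99.7 in FMT_aged) and in T cell-like cells of FMT_aged (124 CPM, against 105 in FMT_young). Bcl2a1d was highest in conventional dendritic cell-like cells, with 50.7 and 71.8 CPM. Both were at or near their lowest in stem and multipotent progenitor-like cells (Bcl2a1b 1.19 and 0.811 CPM, Bcl2a1d 0.425 and 0.312 CPM) and lowest in basophil, eosinophil or mast cell-like cells, where Bcl2a1d had 0 UMIs in FMT_young. In the macrophage-like cluster, too small in FMT_aged (103 and 29 cells) for a ratio, Bcl2a1b reached 334 and 357 CPM and Bcl2a1d 306 and 328 CPM, above each of the 13 classes.

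The proportion of the copies depended on the class. Bcl2a1b had 4.19 (3.31 to 5.35) times the UMIs of Bcl2a1d in FMT_young NK cell-like cells and 3.43 (2.74 to 4.31) times in FMT_aged. In conventional dendritic cell-like cells the order of the counts was reversed, at 0.708 (0.559 to 0.894) and 0.494 (0.399 to 0.610) times. Bcl2a1a, another copy and not among the chosen genes, held 15.3% and 26.1% of the UMIs of the 3 copies in conventional dendritic cell-like cells and 0 of 457 and 0 of 456 in NK cell-like cells. Since each comparison lies within 1 library, these proportions do not depend on scaling between libraries. They are proportions of counted UMIs, and 146 windows were unique to Bcl2a1b but 55 to Bcl2a1d. The values therefore do not show which copy had more transcripts, and are read only for their change between classes.

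**Figure D3:**
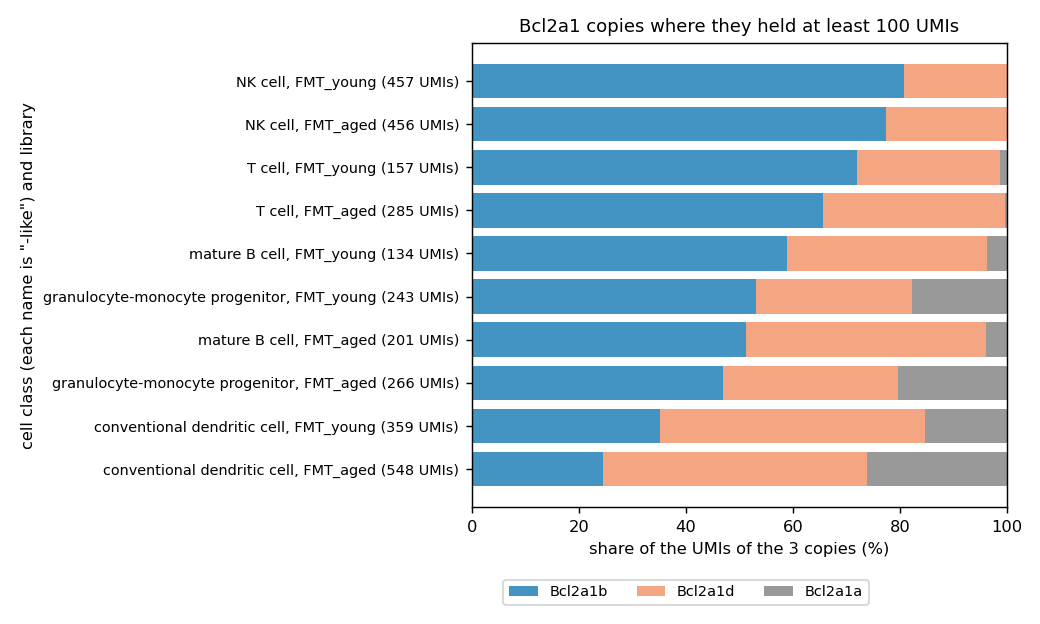
Share (%) of the UMIs of Bcl2a1b, Bcl2a1d and Bcl2a1a in each class and library with at least 100 UMIs of the 3 copies. Bcl2a1b holds 80.7% in NK-like cells of FMT_young and 24.5% in conventional dendritic-like cells of FMT_aged.

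Among the BH3-only genes, Bcl2l11 (chromosome 2, 128126038 to 128162547), which encodes Bim, was highest in NK cell-like cells with 200 and 130 CPM, apart from T cell-like cells with 60.6 and 49.0 CPM. It was lowest in granulocyte-monocyte progenitor-like cells with 9.80 and 7.27 CPM, and stem and multipotent progenitor-like cells had 27.9 and 16.8 CPM. NK cell-like cells thus held both the highest Bcl2 and the highest Bcl2l11 in each library.

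Pmaip1, which encodes Noxa, the BH3-only protein that binds Mcl1 and A1, followed another pattern. Conventional dendritic cell-like cells had 202 and 88.2 CPM, plasmacytoid dendritic cell-like cells 153 and 52.7 CPM, and monocyte-like cells 84.7 and 24.1 CPM. NK cell-like cells were at the bottom with 3.17 and 3.39 CPM, together with FMT_aged neutrophil-like cells at 1.88 CPM from 4 UMIs. Stem and multipotent progenitor-like cells had 18.5 and 3.93 CPM. The order of the top 3 classes was thus the same in both libraries.

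Bbc3, the p53 target Puma (chromosome 7, 16308393 to 16318205), was highest in monocyte-like cells with 31.9 and 23.1 CPM. It was lowest in the granulocytic progenitors, with 3.21 and 4.59 CPM in granulocyte-monocyte progenitor-like cells and 3.89 and 2.01 CPM in neutrophil progenitor-like cells. Stem and multipotent progenitor-like cells had 20.6 and 18.4 CPM. No neighbouring pair stood apart in both libraries.

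The effector Bax (chromosome 7, 45461697 to 45466898) was highest in monocyte-like cells with 153 and 150 CPM and lowest in neutrophil-like cells with 12.6 and 15 CPM. Bak1 (chromosome 17, 27019810 to 27029009) was highest in monocyte-like cells of FMT_young (98.9 CPM, against 86.8 in FMT_aged) and monocyte progenitor-like cells of FMT_aged (94.8 CPM, against 77.4 in FMT_young). Its lowest class was plasma cell-like cells with 4.90 and 6.66 CPM. Stem and multipotent progenitor-like cells had 77.1 and 88.5 CPM of Bax and 45.1 and 51.8 CPM of Bak1. Neutrophil-like cells had 33.1 and 38.1 CPM of Bak1, so the class lowest in Bax was not the lowest in Bak1.

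Over the 26 class and library points, the members' profiles were compared as Pearson correlations of log2(CPM + 1), a description in which the points share 2 libraries. Bcl2a1b and Bcl2a1d had 0.93, Bcl2a1b and Bcl2l11 0.71, Bcl2l1 and Bcl2l11 0.64, Bax and Bak1 0.47, and Bcl2 and Mcl1 -0.17. Of 9035 genes with at least 20 CPM in their highest point, the 3 most like Bcl2 were Cers4 (0.96), Mllt6 (0.96) and Zfp945 (0.94). Among those most like Mcl1 were Zfp36 (0.86) and Osbpl9 (0.82), and those most like Bcl2l1 were Pde2a (0.87), Trip4 (0.85) and Bicdl1 (0.83). After the other copy, Bcl2a1b was most like Grap2 (0.91) and Traf1 (0.90), and Bcl2a1d most like Grap2 (0.88) and Pfdn5 (0.87). Bcl2l11 was most like Arl4d (0.87), Peli1 (0.87) and Klra3 (0.86), Pmaip1 most like Rnd3 (0.84), Tubb2a (0.81) and Fam69a (0.80), and Bbc3 most like Ext1 (0.84), Klf4 (0.83) and Pim1 (0.82). For the effectors they were Psmb1 (0.97), Nt5c (0.96) and Zdhhc21 (0.96) for Bax, and Abracl (0.95), Aurkaip1 (0.95) and Akt1 (0.95) for Bak1.

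Between the libraries, Pmaip1 differed most. Its ratio within classes, taken class by class and pooled over the 13 classes with weights that rise with their UMIs, so that the libraries' different class make-up does not enter, was 1.70 (1.6 to 1.8), or 3.24-fold higher in FMT_young. It lay above 99.4% of 14641 genes, whose median was -0.07. Of the 10 members Pmaip1 alone passed 1.5-fold in this measure, against 7.82% of all genes in either direction.

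Counted class by class among genes with at least 30 UMIs, 112 pairs of a member and a class could be compared. Of these, 21 were at least 1.5-fold higher in FMT_young and 5 at least 1.5-fold lower, together 23.2%, beside 5.44% higher, 6.99% lower and 12.4% in all over every gene and class. Pmaip1 supplied 11 of the 21. Without it, 15 of 100 pairs (15%) were past 1.5-fold, 10 higher and 5 lower. The share of all genes past 1.5-fold differed by class, from 6.2% in monocyte progenitor-like, 6.64% in granulocyte-monocyte progenitor-like and 7.63% in stem and multipotent progenitor-like cells to 21.2% in plasmacytoid dendritic, 22.2% in plasma and 25.5% in mature B cell-like cells. It was 9.05% in monocyte-like, 10.8% in NK cell-like, 11.5% in neutrophil progenitor-like, 11.9% in neutrophil-like, 12.1% in basophil, eosinophil or mast cell-like, 13.5% in conventional dendritic cell-like and 14.5% in T cell-like cells. The well counted progenitor classes thus had the lowest background, and the mature B and plasma values of the members stand against the highest.

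**Figure D4:**
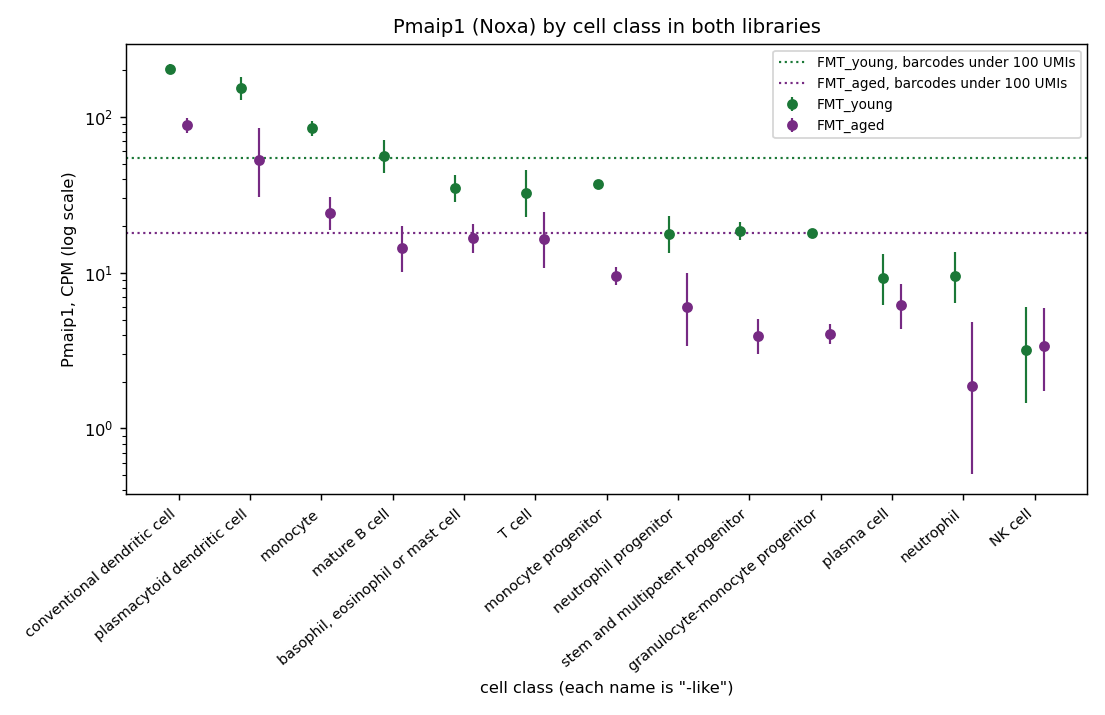
Pmaip1 in CPM (log scale) by cell class in FMT_young (green) and FMT_aged (purple), bars being 95% Poisson intervals and dotted lines the level in barcodes under 100 UMIs. The FMT_young point lies above the FMT_aged point in every class except NK-like cells.

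Pmaip1 was past 1.5-fold in 11 of the 12 classes compared. The ratio in neutrophil-like cells was 2.33 (0.83 to 4.30), from 30 and 4 UMIs, and ranged from 1.09 to 2.71 over 12 processing alternatives. The ratios were 2.24 (1.83 to 2.67) in stem and multipotent progenitor-like cells, 2.15 (1.92 to 2.40) in granulocyte-monocyte progenitor-like cells and 1.95 (1.74 to 2.17) in monocyte progenitor-like cells. They were 3.90-fold on the linear scale in mature B cell-like cells, 1.81 (1.44 to 2.20) in monocyte-like cells, 1.56 (0.72 to 2.49) in neutrophil progenitor-like cells and 1.54 (0.81 to 2.36) in plasmacytoid dendritic cell-like cells. The smallest ratios past 1.5-fold were 1.19 (1.00 to 1.39) in conventional dendritic cell-like cells, 0.98 (0.20 to 1.78) in T cell-like cells and 1.07 (0.64 to 1.5) in the basophil, eosinophil or mast cell-like class. Plasma cell-like cells, at 0.58 (-0.17 to 1.31), lay just under the 1.5-fold line of 0.585 and ranged from 0.23 to 1.56 over 12 alternatives. NK cell-like cells had too few UMIs (9 and 12). In mature B cell-like cells the 12 markers of pro-B and pre-B cells, none of them at 0, also differed, summing to 1429 and 2573 CPM, as did the cell division genes Birc5 (24 and 270 UMIs, -2.45) and Cdc20 (11 and 94 UMIs, -2.05) and the precursor receptor gene Il7r (21 and 149 UMIs, -1.78). At resolution 2.0 a pro-B or pre-B cell-like cluster of 12 and 65 cells stood apart. The part of these cells in the mature B cell-like ratios of Pmaip1 and the other members was not tested.

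Both stem clusters showed it: Pmaip1 was 13.7 and 2.22 CPM in the Hlf cluster (ratio 2.62, 1.83 to 3.50) and 23.0 and 5.33 CPM in the Dntt cluster (2.11, 1.62 to 2.62). In cells thinned to 2000 UMIs, 3.18% (2.17 to 4.48) of FMT_young and 0.689% (0.315 to 1.30) of FMT_aged stem and multipotent progenitor-like cells held a UMI, unthinned 13.8% and 3.97% at median depths of 9363 and 9718 UMIs. NK cell-like cells, the class lowest in Pmaip1 in FMT_young, gave 0.629% and 0.674% (unthinned 1.37% and 0.972% at 3894 and 3548 UMIs). The thinned FMT_aged stem share was thus close to the NK share of that library, which is not a measured background. In conventional dendritic cell-like cells the thinned shares were 33.5% (27.8 to 39.5) and 17.0% (13 to 21.6), far above the NK shares. Thinning left out 9 and 4 stem, 21 and 36 NK and 2 and 0 dendritic cells.

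Free RNA, read from barcodes under 100 UMIs, held 54.5 CPM of Pmaip1 in FMT_young and 18.1 CPM in FMT_aged. Its estimated share of the UMIs of stem and multipotent progenitor-like cells was 1.69% and 1.67%, and after subtraction their ratio was 2.28. The shares were less equal in some other classes. They were 14.7% and 5.04% in conventional dendritic cell-like, 13.8% and 1.40% in basophil, eosinophil or mast cell-like and 5.96% and 3.23% in NK cell-like cells. The part of free RNA in the NK level used above for comparison was not tested. Other genes moved alongside. Of 28 immediate early and dissociation stress genes, which respond within minutes to signals and to cell handling, 28 were above 0 within classes, against 32.6% of all genes, with a median of 0.82 and 24 past 1.5-fold against 4.17% of all genes. The highest were Nr4a1 (2.45) and Klf2 (1.99), and the lowest were the heat shock genes Hspa1a (0.05) and Hspa1b (0.10). In NK cell-like cells, where Pmaip1 was 3.17 and 3.39 CPM and had too few UMIs for a ratio, 10 of these 28 were past 1.5-fold. In stem and multipotent progenitor-like cells 24 of 28 were. In neutrophil-like cells, with a Pmaip1 ratio of 2.33, 14 of 24 compared were higher past 1.5-fold and 2 lower. The count was 21 of 28 in T cell-like cells (Pmaip1 0.98) and 24 of 27 in basophil, eosinophil or mast cell-like cells (1.07). The part of this list in the Pmaip1 difference was not tested. Like the other gene lists below, it was chosen with earlier results of these data known, so its counts are a description.

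**Figure D5:**
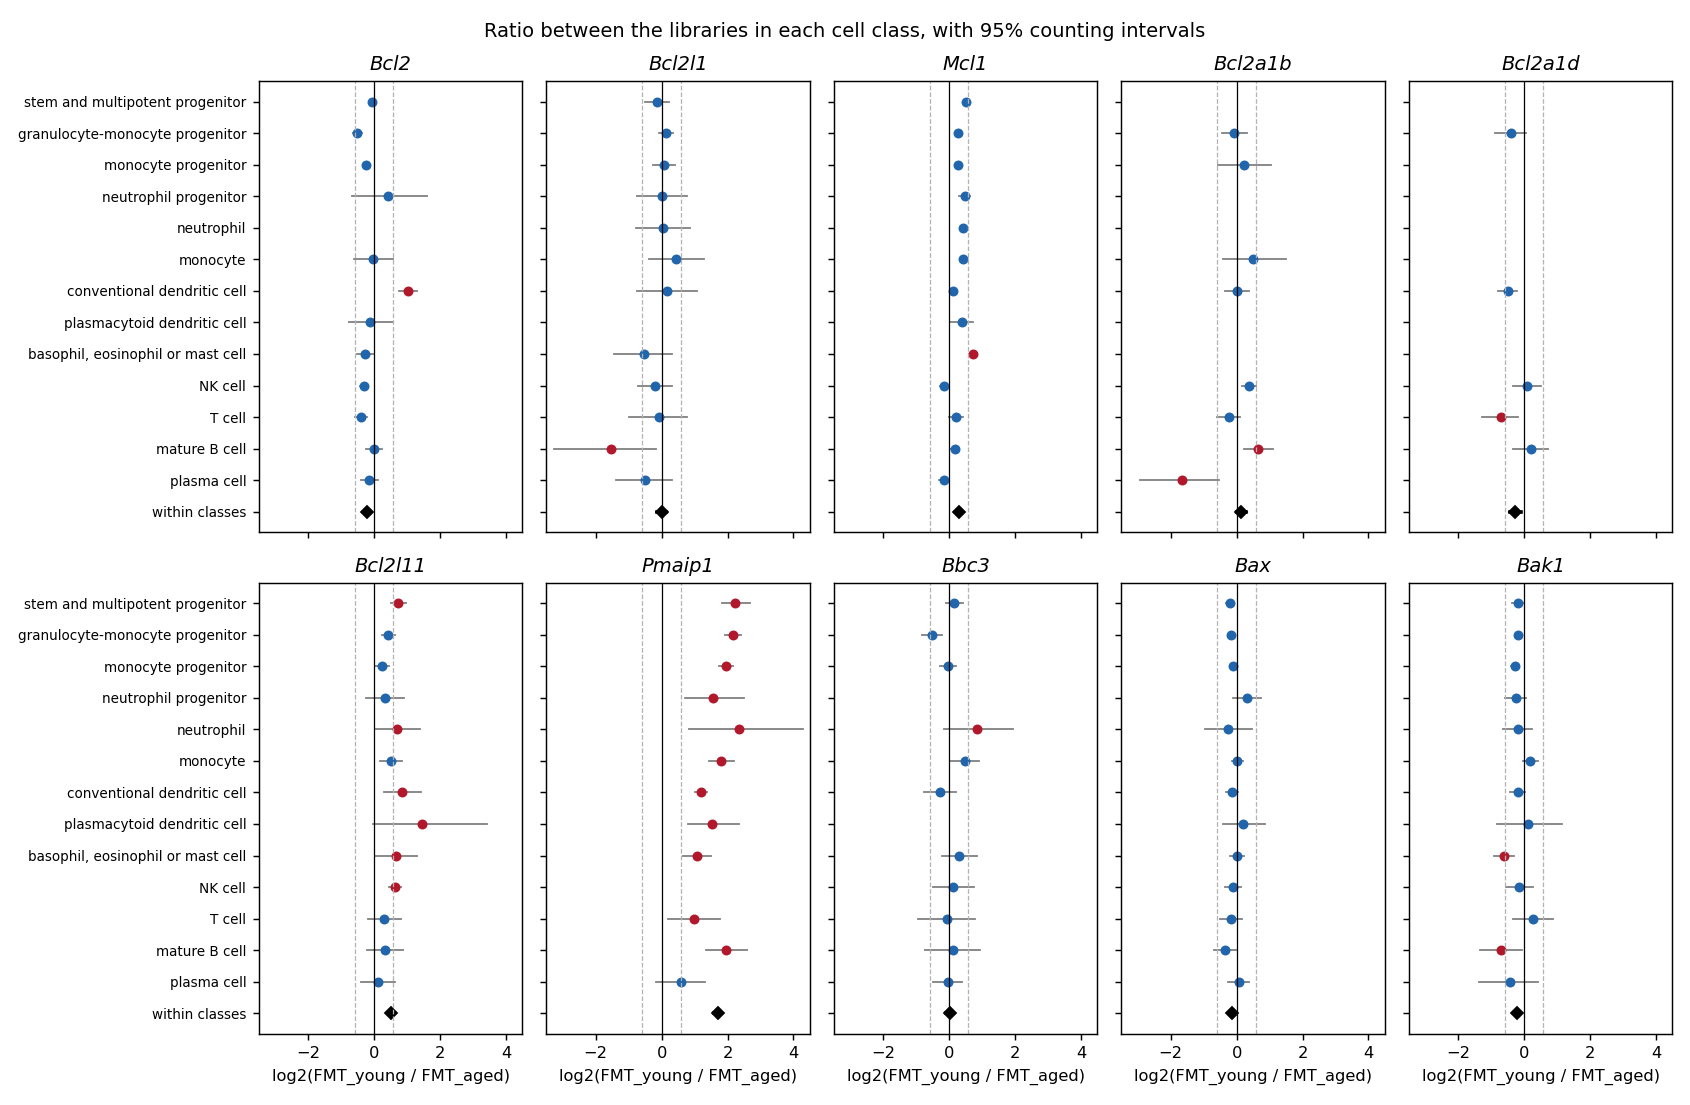
log2 ratio of FMT_young over FMT_aged (x axis) for each gene by cell class (y axis), where both libraries together held at least 30 UMIs. Points past 1.5-fold (dashed lines) are red, lines are 95% counting intervals and the black diamond is the ratio within classes; Pmaip1 lies right of 0 in all 12 classes shown and Bcl2l11 in all 13.

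Bcl2l11 was higher in FMT_young in 13 of 13 classes, with 8 class intervals above 0. Its pooled ratio within classes was 0.50 (0.41 to 0.59), above 94.9% of all genes. In that pooled measure, which does not count classes, 32.6% of all genes were above 0. It was past 1.5-fold with its interval above 0 in conventional dendritic cell-like (0.85), stem and multipotent progenitor-like (0.73), neutrophil-like (0.71), basophil, eosinophil or mast cell-like (0.68) and NK cell-like cells (0.62). In plasmacytoid dendritic cell-like cells it was 1.45 (-0.05 to 3.41) from 31 and 4 UMIs. NK cell-like cells carried the best counted of these differences, 568 and 461 UMIs, with 31.1% (27.5 to 34.9) and 20.8% (18.2 to 23.6) of thinned cells holding a UMI, unthinned 47.9% and 34.4%. Granulocyte-monocyte progenitor-like cells, its lowest class, had a ratio of 0.43 (0.22 to 0.64). In conventional dendritic cell-like cells free RNA (14.7% and 5.04% of UMIs) and cell type markers also differed. Their part in the Bcl2l11 ratio was not tested. The ratio was under 1.5-fold in 6 of 12 alternatives in neutrophil-like cells (down to 0.18), in 3 in the basophil, eosinophil or mast cell-like class (down to 0.25), in 2 in NK cell-like cells (0.57) and in 1 in stem and multipotent progenitor-like cells (0.48 at 2000 UMIs or more).

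Mcl1 was higher in FMT_young in 11 of 13 classes. The pooled ratio of Mcl1 within classes was 0.31 (0.28 to 0.33), or 1.24-fold. It lay above 91.6% of all genes, of which 32.6% were above 0 in this pooled measure. Its interval was above 0 in 10 classes and below 0 in plasma cell-like cells (-0.17, -0.30 to -0.04). The median of all genes in plasma cell-like cells was -0.23, and the Mcl1 ratio there ranged from -0.22 to 0.43 over 12 alternatives. The ratio in stem and multipotent progenitor-like cells was 0.51 (0.45 to 0.57), made of 0.61 (0.53 to 0.68) in the Hlf cluster and 0.27 (0.17 to 0.36) in the Dntt cluster. It passed 1.5-fold in basophil, eosinophil or mast cell-like cells (0.72, 0.59 to 0.86), where free RNA was estimated at 13.8% of FMT_young and 1.40% of FMT_aged UMIs and the 14 mature B markers summed to 3961 and 264 CPM, with 2 and 1 of them at 0. The cell division genes Birc5 (264 and 871 UMIs, -0.915) and Cdc20 (129 and 341 UMIs, -0.60) also differed in that class. The part of free RNA, mature B transcripts and dividing cells in that Mcl1 ratio was not tested. Nor was it tested for the ratios of Pmaip1, Bcl2l11, Bcl2 and Bak1 in the same class. In the Il1b-led cluster with the most Mcl1 the ratio was -0.08 (-0.22 to 0.05).

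Bcl2 was lower in FMT_young in 10 of 12 classes. The pooled ratio of Bcl2 within classes was -0.20 (-0.25 to -0.16). It lay above 20.5% of all genes, of which 67.4% were below 0 in this pooled measure. The interval was below 0 in 5 classes, granulocyte-monocyte progenitor-like (-0.51, -0.65 to -0.37), T cell-like (-0.40, -0.58 to -0.22), NK cell-like (-0.32, -0.42 to -0.21), basophil, eosinophil or mast cell-like (-0.28, -0.51 to -0.05) and monocyte progenitor-like cells (-0.24, -0.34 to -0.14). None of these passed 1.5-fold. Stem and multipotent progenitor-like cells had -0.07 (-0.16 to 0.03), near the median of all genes in that class of -0.09.

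Conventional dendritic cell-like cells went the other way, with 87.1 and 42.7 CPM of Bcl2 and a ratio of 1.03 (0.75 to 1.31). The 15 markers of these cells summed to 31422 and 49800 CPM, and those of other types also differed: mature B 4097 and 1070, plasma 1373 and 322, and plasmacytoid dendritic 1363 and 874 CPM, with 3 and 1 of 14, 0 and 1 of 13 and 1 and 1 of 12 markers at 0. Free RNA was estimated at 14.7% of FMT_young and 5.04% of FMT_aged UMIs there. The part of free RNA and of these transcripts in the Bcl2 ratio was not tested. Nor was it tested for the ratios of Pmaip1, Bcl2l11, Bcl2a1d and Bcl2a1a in the same class. The Bcl2 ratio was under 1.5-fold at 0.56 with at most 5% mitochondrial UMIs and at 0.53 by marker score per cell. With doublets kept it was 0.48.

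The Bcl2a1 copies differed between libraries in few classes. Bcl2a1b was 65.5 and 41.4 CPM in mature B cell-like cells (0.66, 0.22 to 1.10) and 2.45 and 7.66 CPM in plasma cell-like cells (-1.64, -2.94 to -0.55, from 8 and 46 UMIs). Bcl2a1d was 39.1 and 64.3 CPM in T cell-like cells (-0.72, -1.27 to -0.18). Within classes the ratios were 0.14 (0.02 to 0.27) for Bcl2a1b and -0.27 (-0.44 to -0.10) for Bcl2a1d. The mature B value, beside pro-B and pre-B markers at 1429 and 2573 CPM, was under 1.5-fold in 6 of 12 alternatives, from -0.055 with at most 5% mitochondrial UMIs to 0.49 by marker score, and 1.54 with the 1-library cluster added. The plasma value was -0.02 with doublets kept and -0.28 at 2000 UMIs or more. The T cell-like value of Bcl2a1d was -0.58 at 2000 UMIs or more. In plasma cell-like cells the cell division gene Birc5 also differed (4 and 75 UMIs, -3.35). At resolution 2.0 the plasma cell-like clusters outside the 1-library cluster held 209 and 218 cells and 14 and 168 cells. The part of this make-up in the plasma ratios of Bcl2a1b, Mcl1 and Pmaip1 was not tested.

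Bcl2l1 and Bbc3 had ratios within classes of 0.01 (-0.13 to 0.14) and 0.01 (-0.10 to 0.13). Bcl2l1 passed 1.5-fold in mature B cell-like cells alone (-1.54, -3.26 to -0.16), from 5 and 30 UMIs, in the class whose pro-B and pre-B markers summed to 1429 and 2573 CPM, and its sign turned in 4 of 12 alternatives. Bbc3 was 0.84 (-0.15 to 1.93) in neutrophil-like cells, under 1.5-fold in 5 of 12 alternatives, and -0.52 (-0.83 to -0.21) in granulocyte-monocyte progenitor-like cells.

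The effectors were slightly lower in FMT_young. Bax had a ratio within classes of -0.13 (-0.17 to -0.09), passing 1.5-fold in none of 13 classes, and Bak1 of -0.22 (-0.26 to -0.17). The median of all genes was -0.07, and 36.6% of genes lay below Bax and 18.4% below Bak1. Bak1 passed 1.5-fold in basophil, eosinophil or mast cell-like (42.9 and 65.7 CPM, -0.62, -0.92 to -0.32) and mature B cell-like cells (23.2 and 37.4 CPM, -0.69, -1.35 to -0.06), the latter again beside pro-B and pre-B markers at 1429 and 2573 CPM. With doublets kept the first became -0.27 and the second -0.38. The first was under 1.5-fold in 5 of 12 alternatives, and the second in 4 (up to -0.10 by marker score) and above 0 in another (0.38 with the 1-library cluster added).

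The wider pathway did not move as a block. Of 12 other Bcl2 family genes with enough UMIs, 3 were above and 9 below 0 within classes, with a median of -0.09. This was near all genes, of which 67.4% were below 0, with a median of -0.07. Bik (0.26) and Bnip3 (0.08) were highest, and Bcl2a1a (-0.78) and Bok (-0.70) lowest and past 1.5-fold, where 3.65% of all genes were. Bok rests on 50 and 104 UMIs and is also a pro-B and pre-B marker. Bcl2a1a rests on 133 and 235 UMIs. It was -1.27 in conventional dendritic cell-like cells (55 and 143 UMIs) and -0.44 (-1.05 to 0.16) in granulocyte-monocyte progenitor-like cells. Of 16 apoptosome and caspase genes 13 were below 0, against 67.4% of all genes, with a median of -0.15 and none past 1.5-fold: Apaf1 (0.10), the scaffold of the apoptosome, was highest, and Casp6 (-0.22) and Endog (-0.21) lowest. Of 8 inhibitors of caspases 5 were above 0, beside 32.6% of all genes, with a median of 0.03. Birc3 (0.16) and Birc6 (0.05) were highest, and Xiap (-0.25) and Birc5 (-0.19) lowest.

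Pmaip1 and Bbc3 are p53 targets. Of 17 other genes of the p53 pathway 11 were above and 6 below 0, with a median of 0.10, and 4 were past 1.5-fold, all higher, beside 32.6% of all genes above 0 and 4.17% past 1.5-fold higher. One of the 4, Eda2r (0.64), rests on 22 and 19 UMIs. The highest were Plk2 (1.36) and the cell cycle inhibitor Cdkn1a (1.13), and the lowest Zmat3 (-0.27) and Aen (-0.19). Trp53 was at -0.08 and its inhibitor Mdm2 at 0.10. In stem and multipotent progenitor-like cells Cdkn1a was 99.3 and 48.3 CPM (1.04, 0.91 to 1.17) and Plk2 29.2 and 10.7 CPM (1.44, 1.17 to 1.72). The p53 list thus held a few strongly higher genes beside many near 0.

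Of 17 survival receptor genes 7 were above and 10 below 0, beside 67.4% of all genes below 0. Their median was -0.03 and none passed 1.5-fold. Il6ra (0.14) and Tnfrsf13b (0.06) were highest, and Il2rb (-0.26) and Flt3 (-0.25) lowest. Of 7 genes that control the turnover of Mcl1 protein 4 were above 0, beside 32.6% of all genes, with a median of 0.01. Trim17, a ubiquitin ligase, was at 3.06 from 40 and 5 UMIs in all classes, followed by the kinase gene Gsk3b (0.12), and Cdc20 (-0.29) and Usp9x (-0.04) were lowest. Of 20 NF-kB targets and inhibitors, the group that A1 belongs to, 11 were above 0, with a median of 0.16. Il1b (2.10) and Ccl4 (1.43) were highest, Cxcl2 (-0.82) and Nfkb2 (-0.31) lowest, 5 were past 1.5-fold higher and 1 lower, beside 4.17% and 3.65% of all genes, with 32.6% of all genes above 0.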

How the data were processed

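The matrices deposited by the authors hold raw UMI counts per gene and barcode, made with Cell Ranger 3.1.0 and mm10 per the file headers and the submitters' processing notes. The gene and barcode lists hold names only. The members and gene lists were chosen with earlier results of these data known.

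Cells were called by the limits given above, and doublets were removed by simulated doublet scores (0.8% per 1000 cells, 1139 and 1031 cells). Cells were clustered together on 2000 variable genes, 40 principal components and 20 neighbours (Leiden, resolution 1.0, leidenalg 0.10.2). A name needed 3 markers of 1 type, found in 10% of cells and 1.5 times higher than elsewhere. The naming limits, the Kit limit of 20% of cells, which separated progenitors from mature cells among monocyte and neutrophil clusters only, and the limit of 5% for clusters in 1 library were set after the clusters had been seen. This left 29 clusters, 6 of them unnamed.

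UMIs were summed by class and library, so a level weights cells by depth. CPM has exact Poisson, ratios exact conditional binomial and shares Clopper-Pearson intervals, at 95%. The ratio within classes is a Mantel-Haenszel ratio. Named were all 10 members, their pairs past 1.5-fold with an interval off 0, the 2 highest and lowest genes of each list, and the 3 genes most like each member, of which some are not reported here. The ratios and intervals were tested on simulated data. Positions are from GENCODE (GRCm38), and the RefSeq promoter table held 9 of the 10 members.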

Additional observations from a re-analysis of the deposited data

How the results depend on the processing

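Ratios were recomputed under 12 alternatives, 2 of them chosen after seeing the data (without a shallow progenitor cluster, and with the 1-library clusters in their classes). Pmaip1 within classes ranged from 1.54 to 1.76 and Bcl2l11 from 0.47 to 0.57, and their sign in single classes was the same in 142 of 142 and 154 of 154 values. Moves beyond counting error were Bcl2 -0.27 and Mcl1 0.36 with classes by marker score, Mcl1 0.28 when the family, immediate early and NF-kB genes were kept out of clustering, and Mcl1 0.35 with the 1-library clusters. With means over cells Bcl2 was -0.25, Bcl2l1 -0.16, Pmaip1 1.54, Bbc3 0.15, Bax -0.076 and Bak1 -0.17. With TMM scaling Bcl2 was -0.14, Mcl1 0.37, Bax -0.071 and Bak1 -0.16. The 5 pairs lower past 1.5-fold became 3 at 2000 UMIs or more, without doublet removal and at resolution 2.0, and 9 with free RNA subtracted. In mature B cell-like cells, Bcl2l1 turned to 0.11 at up to 5% mitochondrial UMIs, 0.96 at 2000 UMIs or more, 0.19 at resolution 2.0 and 0.31 by marker score, Bcl2a1b to -0.055 at up to 5% mitochondrial UMIs, and Bak1 to 0.38 with the 1-library clusters. The cause was not tested. Neutrophil progenitor-like cells could not be compared at the 20% and 5% mitochondrial limits. No paired analysis was possible because each group has 1 library. Few UMIs limit Bcl2l1, the Bcl2a1 copies and Bbc3, and intervals say nothing of variation between mice.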

Other observations

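Barcodes left out for more than 10% mitochondrial UMIs, 1941 in FMT_young and 2621 in FMT_aged, also held the members. Scaled to nuclear UMIs, Pmaip1 was 43.3 and 16.2 CPM in these barcodes and 29.6 and 9.46 CPM in the called cells. Bax was 36.6 and 47.0 CPM against 97.0 and 110 CPM, and Bak1 45.2 and 45.4 CPM against 60.7 and 73.7 CPM. Bcl2 was 82.4 and 126 CPM against 58.3 and 79.6 CPM, Mcl1 363 and 337 CPM against 290 and 224 CPM, and Bcl2l11 33.8 and 28.0 CPM against 20.6 and 14.9 CPM. Bax and Bak1 were therefore lower and Bcl2, Mcl1, Bcl2l11 and Pmaip1 higher in these barcodes in both libraries, which are not matched for cell type.

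Unnamed progenitor clusters showed the same members. In the cluster led by histone genes that carried monocyte markers, Pmaip1 was 36.2 and 9.89 CPM (1.87, 1.63 to 2.12) and Bcl2l11 18.1 and 8.56 CPM (1.08, 0.80 to 1.36). In the cluster led by Ak4 that carried granulocyte-monocyte progenitor markers, Pmaip1 was 15.2 and 3.1 CPM (2.30, 1.84 to 2.78) and Mcl1 225 and 145 CPM (0.63, 0.55 to 0.72). In the shallow granulocyte-monocyte progenitor-like cluster, with medians of 2022 and 3113 UMIs, Pmaip1 was 8.72 and 5.97 CPM (0.55, -0.63 to 1.79).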
